A study of Mus musculus with 12 samples.

Results

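The genes described here are 36 imprinted genes of the mouse, named from the well-known imprinted clusters and looked up by their name on the array (Meg3 also as Gtl2). Of these, 35 were on the array, with 67 of its 41174 probes, among 27670 gene names in all. Rtl1, a retrotransposon-derived gene of the Dlk1-Dio3 cluster, had no probe under its name. Each gene was read through 1 probe, the one with the brightest mean processed signal in EGFP control RNA, and 17 of the 35 genes had several. By the allele that is usually expressed, 20 of the 36 are paternally and 15 maternally expressed, and Gnas has transcripts of both kinds.

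An imprinted gene is transcribed mainly from the chromosome inherited from one parent, because DNA methylation set in the egg or the sperm marks a control region that governs the whole cluster. Many of these genes act on fetal and placental growth, with paternally expressed genes such as Igf2 tending to promote it and maternally expressed genes such as Cdkn1c, Phlda2 and Grb10 tending to restrain it. Cultured embryonic stem cells are known for unstable imprints, in particular at Dlk1-Dio3 and Igf2-H19. The arrays measured total RNA of a gene and did not separate the parental alleles.

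RNA was taken from E14 cells, a single line of mouse embryonic stem cells, grown in wells and treated for 72 hr with a lipid transfection reagent and 0.33 ng/µl of esiRNA, an enzymatically cut pool of short interfering RNAs. In the p400 knockdown the esiRNA targeted p400, the ATPase encoded by Ep400 that remodels chromatin, and the RNA was read on 4 arrays of 2 colours, each also holding EGFP control RNA in the other dye. Tip60 knockdown cells received esiRNA against Tip60 (gene Kat5), the histone acetyltransferase of the same complex, and EGFP control cells esiRNA against a reporter gene, with 4 arrays of 1 colour for each. The submitters set Tip60 replicate 3 aside as an outlier in intensity, so 3 Tip60 arrays were compared with 4 EGFP arrays. The design text calls the replicates biological. The p400 arrays shared a slide, and the other arrays lay on 2 slides that each held Tip60 and EGFP arrays.

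Between 27598 and 30752 of 43379 spots were well above background in each channel of the p400 arrays, and between 25073 and 30107 on each of the other arrays in the comparison. Tip60 replicate 3 had 22188. Precision is limited by how few arrays there were. Ep400 RNA fell in p400 knockdown (log2 fold change -0.58 ± 0.09, SE, n = 4, limma adjusted p = 0.00551), and Kat5 RNA fell in Tip60 knockdown (-1.49 ± 0.07, adjusted p = 1.22e-05). Kat5 also fell in p400 knockdown by 0.43 (adjusted p = 0.0108). All 11 pluripotency markers on the array were well above background in all RNAs; in p400 knockdown 4 of them fell, and in Tip60 knockdown 1 rose and 2 fell. Markers of other cell types moved beside them. Of the primitive endoderm markers, 10 of 14 tested rose in p400 and 8 of 13 in Tip60 knockdown. Of 12 trophoblast markers, 8 rose and 1 fell in p400 knockdown, and 5 rose and 1 fell in Tip60 knockdown. Of 12 fibroblast markers, which feeder cells would carry, 8 rose and 1 fell, and 7 rose and 2 fell. Among all genes tested, 20.2% rose and 14.9% fell in p400 knockdown, and 15% rose and 10.8% fell in Tip60 knockdown. In such bulk RNA, fewer cells of a type and less RNA per cell cannot be told apart.

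The non-coding RNAs of the Dlk1-Dio3 cluster fell in both knockdowns, and their probes are shown here because all 8 of them gave a lower mean in both. Meg3 is a long non-coding RNA, Rian is the host of a small nucleolar RNA cluster and Mirg is the host of a microRNA cluster, and all are transcribed from the plus strand of the maternal chromosome 12. The deposited files give the 60-base probe sequences, with positions on build mm7. They are written 5′ to 3′ in lower case, in chromosomal order:
Meg3 probe 1, chr12:107070994-107079479: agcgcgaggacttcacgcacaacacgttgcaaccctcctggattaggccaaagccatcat
Meg3 probe 2, chr12:107080192-107080251: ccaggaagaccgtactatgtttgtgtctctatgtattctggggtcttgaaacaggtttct
Meg3 probe 3, chr12:107082578-107082637: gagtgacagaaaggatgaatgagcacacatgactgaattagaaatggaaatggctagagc
Meg3 probe 4, chr12:107083918-107083977: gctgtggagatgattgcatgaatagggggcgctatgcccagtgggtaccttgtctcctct
Meg3 probe 5, chr12:107092697-107092756: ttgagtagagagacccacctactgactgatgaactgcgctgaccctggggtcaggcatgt
Rian probe 1, chr12:107172103-107172162: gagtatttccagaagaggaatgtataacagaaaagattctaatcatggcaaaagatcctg
Rian probe 2, chr12:107180614-107180673: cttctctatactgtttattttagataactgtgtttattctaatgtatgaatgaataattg
Mirg probe, chr12:107261346-107261405: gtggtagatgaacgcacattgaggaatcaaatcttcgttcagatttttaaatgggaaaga
Meg3 probe 1 spans 8486 bases of the genome, and the others each lie in 1 unbroken stretch. The probes of Meg3 hold from 41.7% to 55.0% G and C, and Rian probe 2 holds 23.3%.

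The promoter of Meg3 is shown because the control of this RNA is tied to methylation of the cluster's control regions. The window runs from 250 bases before to 50 bases after the start of the transcript, on the plus strand, from RefSeq on build GRCm38.p6. Capitals mark the only match to TGCCGC, the hexamer that the imprint-protecting zinc-finger protein ZFP57 reads when it is methylated, searched on both strands:
Meg3 promoter, chr12:109540746-109541045: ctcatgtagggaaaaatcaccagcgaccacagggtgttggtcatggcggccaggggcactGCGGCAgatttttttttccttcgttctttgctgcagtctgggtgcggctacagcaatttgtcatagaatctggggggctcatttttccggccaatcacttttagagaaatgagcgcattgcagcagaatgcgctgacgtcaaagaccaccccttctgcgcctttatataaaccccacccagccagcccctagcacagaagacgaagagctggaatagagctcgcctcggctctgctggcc
A match is a description of letters and not a bound site. The hexamer stood in 11.6% of 32851 promoter windows of all genes and in 10 of 45 windows of the imprinted genes (22.2%), which come from 29 of them. Counted by gene, 9 of the 29 (31.0%) held it in some window, against 13.1% of all 27025 genes. The hexamer holds a CG, and the median count of CG pairs was 13 in windows of the imprinted genes and 7 in all windows. The imprinted genes also had more windows each, 45 for 29 genes against 32851 for 27025. The part of either in these shares was not tested.

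Of the 36 genes, 32 exceeded background clearly on 3 or more arrays of each RNA and were tested in both comparisons. Zim1, Nap1l5 and Dcn were too dim to test. In p400 knockdown 10 of the 32 rose, where 20.2% of all 18638 genes tested rose, and 8 fell, where 14.9% of all genes fell (limma, Benjamini-Hochberg adjusted p under 0.05). Taken without direction, 18 of 32 (56.2%) passed the test, beside 35.1% of all genes. The median log2 fold change of the 32 genes was 0.02, and that of all genes 0.01. In Tip60 knockdown 6 rose, where 15% of all 16938 genes tested rose, and 12 fell (Ppp1r9a among them by its brightest probe only), where 10.8% of all genes fell, so that again 18 (56.2%) passed, beside 25.7% of all genes. Their median was -0.05, beside 0.00 for all genes. The balance of calls depended on the scaling. With median centring in place of loess, 30% of all p400 calls were higher, beside 57.6%. There, 14 of the 32 imprinted genes and 6714 of all 18638 genes fell. With median scaling, 22.7% of all Tip60 calls were higher, beside 58.2%. Here, 3 of the 32 imprinted genes and 1458 of all 16938 genes rose. The rises and falls nearly balanced in the median, and the spread was wide, from -1.07 (Grb10) to 2.33 (Magel2) in p400 knockdown and from -0.75 (Phlda2) to 1.39 (Magel2) in Tip60 knockdown.

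**Figure D1:**
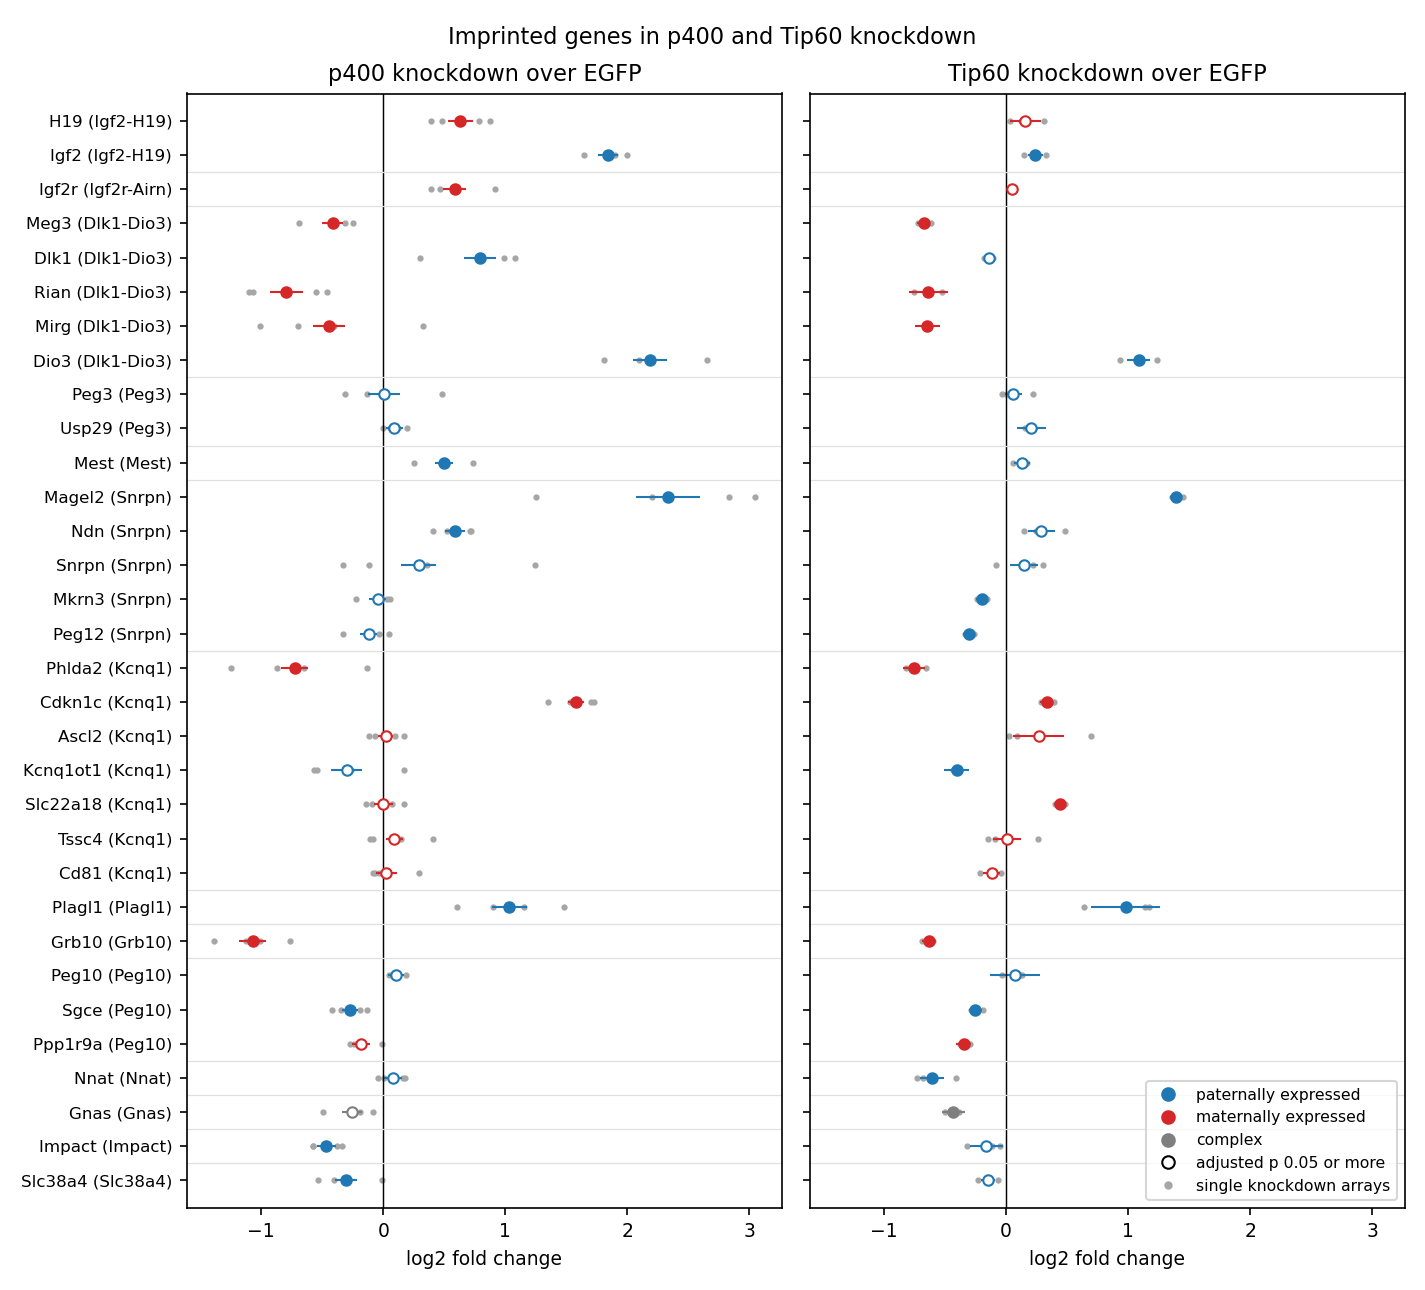
Log2 fold change of p400 knockdown (left) and Tip60 knockdown (right) over EGFP for the 32 tested imprinted genes, grouped by cluster (in brackets), with SE as bars, the usual expressed allele as colour, open circles where the adjusted p was 0.05 or more, and grey dots for single knockdown arrays (on the right set against the EGFP mean). Magel2, Dio3, Igf2, Cdkn1c and Plagl1 stand furthest to the right in p400 knockdown, and Grb10, Rian and Phlda2 furthest to the left.

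The Dlk1-Dio3 cluster on chromosome 12 divided by type of transcript in p400 knockdown, and equally by parental allele. Its maternally expressed non-coding RNAs fell in both knockdowns, Mirg only narrowly in p400 knockdown. The protein-coding, paternally expressed Dio3 rose in both and Dlk1 rose in p400 knockdown. Meg3, through its brightest probe (probe 5), had log2 ratios (p400 knockdown over EGFP) of -0.31, -0.24, -0.69 and -0.41, in the order of replicates 1 to 4. All 4 ratios lay below 0, and the fitted change was -0.42 ± 0.09 (SE, n = 4, adjusted p = 0.0147), a 1.33-fold lower level; without replicate 3 it was -0.32 and did not pass. On the other arrays, where levels are log2 signals relative to the 75th percentile of the array, Meg3 stood at 3.49, 3.56 and 3.46 in Tip60 knockdown, against 4.21, 4.21, 4.22 and 4.09 in EGFP RNA. The groups did not overlap, and the level was 1.60-fold lower in Tip60 knockdown (-0.68 ± 0.06, SE, adjusted p = 0.000213).

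The remaining Meg3 probes ran the same way in a fit over all probes, each tested on its own. Their fitted changes lay between -0.42 and -0.21 in p400 knockdown, where only probe 1 of the 4 passed the test (adjusted p = 0.00548), and between -0.71 and -0.55 in Tip60 knockdown, where all but probe 3 passed (adjusted p = 0.0644). Rian was read by its brighter probe 2 at log2 ratios of -1.1, -0.55, -0.46 and -1.07 in p400 knockdown. All were below 0, with replicates 1 and 4 the lowest, and the change was -0.79 ± 0.13 (SE, adjusted p = 0.00773). In Tip60 knockdown Rian stood at -0.11, 0.02 and 0.12, against 0.30, 0.99, 0.73 and 0.57 in EGFP RNA. All Tip60 arrays were below all EGFP arrays, EGFP replicate 1 being the nearest, and the change was -0.64 ± 0.16 (SE, adjusted p = 0.0240). It missed the threshold without EGFP replicate 3 (-0.61) or without Tip60 replicate 1 (-0.58), 2 (-0.64) or 4 (-0.69). Rian probe 1 gave -0.41 (adjusted p = 0.0201) and -0.69 (adjusted p = 0.00128) in p400 and Tip60 knockdown. Mirg had log2 ratios of 0.33, -1.01, -0.41 and -0.70 in p400 knockdown. Replicate 1 was above 0 and the others below, and the change of -0.45 ± 0.13 (SE) passed narrowly (adjusted p = 0.0421). It did not pass without replicate 2 (-0.26), 3 (-0.46) or 4 (-0.36). Nor did it pass without the dye term of the fit (adjusted p = 0.127) or without the filter on dim probes (adjusted p = 0.0768). With arrays scaled to a common spread it also failed (adjusted p = 0.0886), so 6 of 14 alternatives lost the call. Tip60 knockdown arrays read 0.10, 0.11 and 0.11 for Mirg, against 0.62, 1.03, 0.66 and 0.70 on EGFP arrays. The groups were well apart, with a change of -0.65 ± 0.10 (SE, adjusted p = 0.00395).

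Dio3, the deiodinase that inactivates thyroid hormone, had log2 ratios of 2.19, 2.65, 2.09 and 1.81 in p400 knockdown. Every array was far above 0, and the level was 4.55-fold higher (2.19 ± 0.14, SE, adjusted p = 0.000577). Its probe lies at chr12:107799167-107799226 on build mm7. In Tip60 knockdown Dio3 stood at 1.91, 1.60 and 1.76, against 0.53, 0.78, 0.64 and 0.74 in EGFP RNA, a 2.12-fold higher level without overlap (1.09 ± 0.09, SE, adjusted p = 0.000255). The rise was larger in p400 than in Tip60 knockdown by 1.1 ± 0.17 (SE, adjusted p = 0.0349). Dlk1, a membrane protein of the Notch ligand family, had log2 ratios of 0.99, 1.08, 0.79 and 0.30 in p400 knockdown. All were above 0, replicate 4 being lowest, and the change was 0.79 ± 0.13 (SE, adjusted p = 0.00736). In Tip60 knockdown Dlk1 stood at 0.25, 0.20 and 0.27, against 0.39, 0.39, 0.36 and 0.37 in EGFP RNA. The Tip60 arrays were all slightly lower, and the change of -0.14 ± 0.05 (SE) did not pass (adjusted p = 0.0630). It passed under 3 of 20 alternatives, with median scaling (-0.34) and in fits with Tip60 replicate 3 added (-0.15 and -0.13). The difference between the knockdowns was 0.93 ± 0.14 (SE, adjusted p = 0.0343). The second Dlk1 probe gave 0.56 in p400 and -0.11 in Tip60 knockdown.

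**Figure D2:**
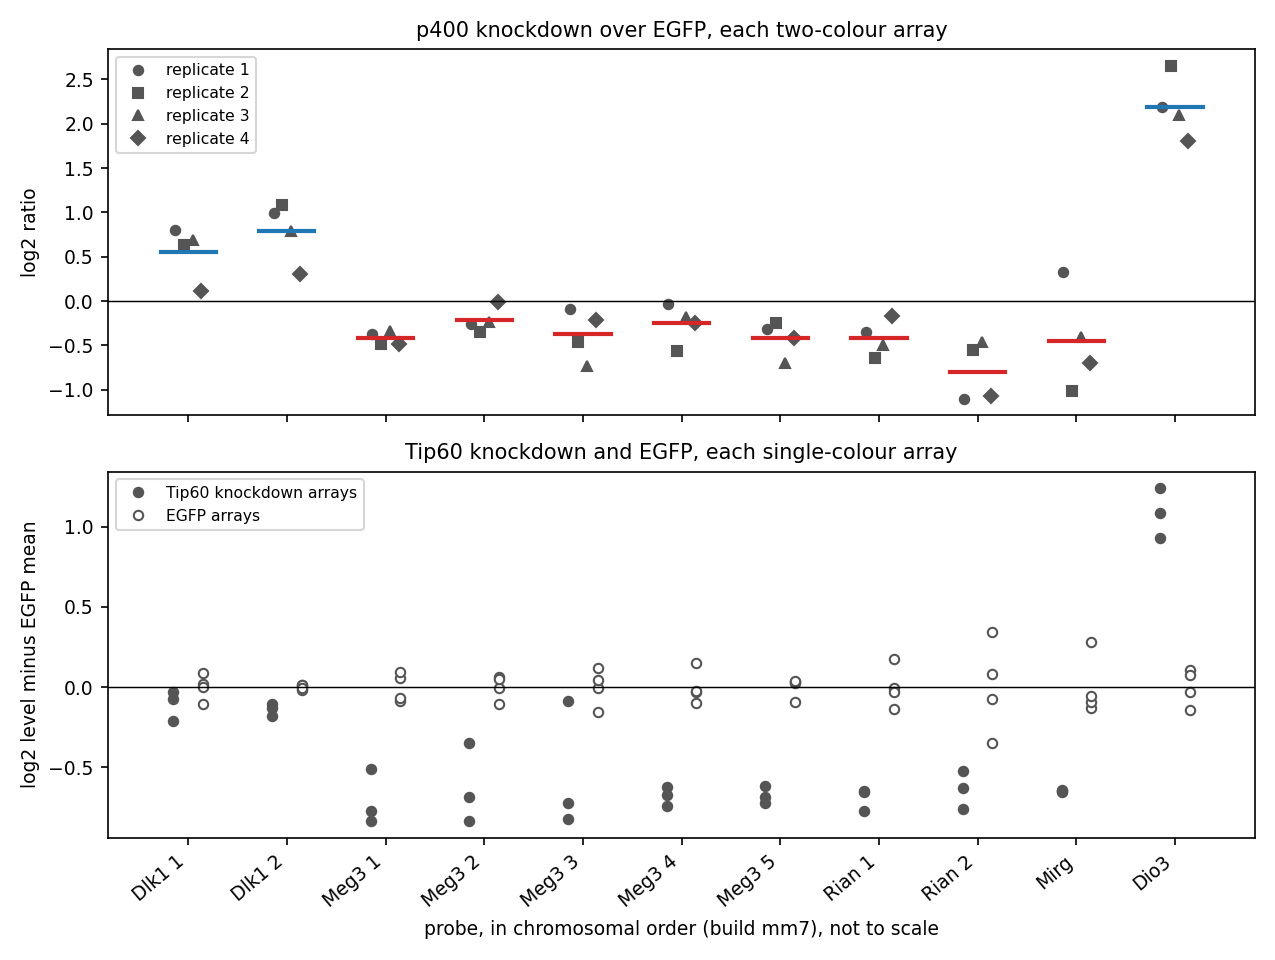
The 11 probes of the Dlk1-Dio3 cluster in chromosomal order, with the log2 ratio of p400 knockdown over EGFP on each of 4 arrays (top, bars for the fitted change, red for the maternally expressed RNAs) and the log2 level of each Tip60 knockdown (filled) and EGFP array (open) minus the EGFP mean (bottom). The 8 probes of Meg3, Rian and Mirg have fitted changes below 0 in the top panel and Tip60 means below EGFP in the bottom panel, and Dio3 stands above in both.

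In the Igf2-H19 cluster on chromosome 7, both genes rose in p400 knockdown, although they are expressed from opposite parental alleles and share enhancers. Igf2 encodes a fetal growth factor, and its probe lies at chr7:139078075-139078135. Its log2 ratios in p400 knockdown were 1.83, 2.0, 1.90 and 1.65. The arrays were all high and close together, and the level was 3.59-fold higher (1.85 ± 0.08, SE, adjusted p = 0.000233). In Tip60 knockdown Igf2 stood at 2.57, 2.75 and 2.66, against 2.39, 2.43, 2.50 and 2.38 in EGFP RNA. The arrays did not overlap, but the change was small, at 1.18-fold (0.24 ± 0.06, SE, adjusted p = 0.0275), and it was not called under 9 of 20 alternatives. Among these were leaving out EGFP replicate 1 (0.22), 2 (0.24) or 4 (0.22) and Tip60 replicate 2 (0.19) or 4 (0.24). The second Igf2 probe gave 1.51 in p400 and 0.27 in Tip60 knockdown.

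H19 is a long non-coding RNA that is also a source of a microRNA. Its log2 ratios in p400 knockdown were 0.48, 0.79, 0.87 and 0.39. All lay above 0, with a change of 0.63 ± 0.10 (SE, adjusted p = 0.00673). In Tip60 knockdown H19 stood at -3.32, -3.23 and -3.05, against -3.13, -3.38, -3.29 and -3.63 in EGFP RNA. These groups overlapped, and the change of 0.16 ± 0.12 (SE) did not pass (adjusted p = 0.408). Igf2r, the maternally expressed receptor that carries the Igf2 protein to the lysosome, had log2 ratios of 0.46, 0.57, 0.91 and 0.39 in p400 knockdown. Replicate 3 was the highest and none was below 0, with a change of 0.58 ± 0.09 (SE, adjusted p = 0.00670). With median centring in place of loess, the Igf2r change was 0.28 and did not pass (adjusted p = 0.0580). Its levels in Tip60 knockdown of 1.63, 1.58 and 1.62 overlapped those of 1.57, 1.55, 1.53 and 1.59 in EGFP RNA (0.05 ± 0.04, SE, adjusted p = 0.450). In p400 knockdown the growth factor, its clearance receptor and the neighbouring non-coding RNA were therefore all higher, with Igf2 the furthest.

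The Kcnq1 cluster, distal on the same chromosome, had 7 genes tested, of which Cdkn1c and Phlda2 moved most in p400 knockdown, in opposite directions. Cdkn1c, a cyclin-dependent kinase inhibitor, had log2 ratios of 1.70, 1.53, 1.73 and 1.35 in p400 knockdown. They stood close together, for a 2.99-fold higher level (1.58 ± 0.07, SE, adjusted p = 0.000228). In Tip60 knockdown Cdkn1c stood at 2.90, 3.01 and 2.93, against 2.54, 2.68, 2.62 and 2.62 in EGFP RNA, a 1.26-fold higher level with no overlap (0.33 ± 0.06, SE, adjusted p = 0.00492). This Tip60 call was lost under 3 of 20 alternatives. They were median scaling (0.13, adjusted p = 0.298), slide 2 alone (0.39, adjusted p = 0.0539) and the replicate block (0.33, adjusted p = 0.0635). The difference between the knockdowns was 1.25 ± 0.09 (SE, adjusted p = 0.0217). Phlda2, a protein that restrains growth of the placenta, went the other way. Its log2 ratios in p400 knockdown were -0.14, -1.24, -0.65 and -0.87. Replicate 1 lay near 0 and replicate 2 lowest, and the change was -0.73 ± 0.11 (SE, adjusted p = 0.00582); without replicate 3 it was -0.75 and did not pass. In Tip60 knockdown Phlda2 stood at 4.30, 4.17 and 4.13, against 4.76, 5.05, 4.94 and 5.07 in EGFP RNA. The groups were apart, with a 1.69-fold lower level (-0.75 ± 0.09, SE, adjusted p = 0.00109). The probes of these neighbours lie at chr7:139886128-139886187 (Cdkn1c) and chr7:139928849-139928908 (Phlda2), and the second Phlda2 probe, which overlaps the first, gave -0.68 in p400 and -0.71 in Tip60 knockdown.

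Kcnq1ot1, the paternally expressed antisense RNA that silences this cluster in cis, had a change of -0.30 ± 0.13 in p400 knockdown that did not pass (adjusted p = 0.117) and fell in Tip60 knockdown by 0.41 (SE 0.10, adjusted p = 0.0278), a call that was lost on leaving out EGFP replicate 2 (-0.36) or 3 (-0.35) or any Tip60 replicate (-0.42, -0.40 and -0.39). Without p400 replicate 1 its p400 change was -0.46 and passed. Slc22a18, a membrane transporter gene, had a change of 0.00 ± 0.08 in p400 knockdown (adjusted p = 0.989) and rose in Tip60 knockdown by 0.44 ± 0.05 (adjusted p = 0.000773). Its second, dimmer probe gave 0.18 in Tip60 knockdown and did not pass. Ascl2, a transcription factor of trophoblast, had changes of 0.02 in p400 and 0.27 in Tip60 knockdown. Tssc4 had 0.09 and 0.01, and the tetraspanin Cd81 had 0.03 and -0.12. None of these last 3 genes passed in either comparison. Cdkn1c and Phlda2, both maternally expressed under one control region, thus moved in opposite directions in both knockdowns. The Tip60 rise of Cdkn1c was small, and its call depended on the scaling.

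In the Snrpn cluster on chromosome 7, whose 5 genes are all paternally expressed, Magel2 moved furthest of all the imprinted genes. It encodes a MAGE-family partner of ubiquitin ligases, and its probe lies at chr7:58131090-58131149. Its log2 ratios in p400 knockdown were 2.20, 2.83, 3.05 and 1.25. All were above 0, replicate 4 the lowest, for a 5.04-fold higher level (2.33 ± 0.26, SE, adjusted p = 0.00258). In Tip60 knockdown Magel2 stood at -1.15, -1.16 and -1.06, against -2.50, -2.52, -2.52 and -2.53 in EGFP RNA. The groups were tight and far apart, for a 2.63-fold higher level (1.39 ± 0.05, SE, adjusted p = 2.64e-06). The difference between the knockdowns, 0.94 ± 0.27 (SE), did not pass (adjusted p = 0.101). With the deposited log ratios set against quantile-normalized Tip60 values it was 2.02 and passed (adjusted p = 0.0214).

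Ndn, or necdin, a growth-restraining MAGE-family protein of neurons, had log2 ratios of 0.52, 0.72, 0.71 and 0.41 in p400 knockdown. All were above 0, with a change of 0.59 ± 0.08 (SE, adjusted p = 0.00449). In Tip60 knockdown Ndn stood at -0.66, -0.33 and -0.56, against -0.80, -1.02, -0.64 and -0.78 in EGFP RNA. EGFP replicate 3 lay just above Tip60 replicate 1, the groups otherwise being apart, and the change of 0.29 ± 0.11 (SE) did not pass (adjusted p = 0.107). Mkrn3, a RING-finger protein known for its role in the timing of puberty, had changes of -0.05 in p400 knockdown (adjusted p = 0.621) and -0.20 in Tip60 knockdown (adjusted p = 0.0284). That call was lost without EGFP replicate 2, 3 or 4 or any Tip60 replicate, with changes between -0.21 and -0.18. Peg12, of the Frat family, had -0.12 (adjusted p = 0.232) and -0.31 (adjusted p = 0.00476). The splicing protein gene Snrpn had 0.29 and 0.15 and passed in neither, with p400 replicate 2 at 1.25 and the other 3 arrays between -0.33 and 0.35. Neighbouring genes expressed from the same allele thus rose (Magel2) and fell (Mkrn3 and Peg12) in the same Tip60 knockdown RNA.

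Among genes of smaller clusters, Grb10 and Plagl1 moved most. Grb10 is an adaptor that damps signalling from the insulin and Igf receptors, and its log2 ratios in p400 knockdown were -1.39, -1.01, -0.77 and -1.12. Every array was low, for a 2.10-fold lower level (-1.07 ± 0.11, SE, adjusted p = 0.00203). In Tip60 knockdown Grb10 stood at 3.64, 3.56 and 3.63, against 4.23, 4.21, 4.20 and 4.34 in EGFP RNA. The groups did not overlap, with a 1.55-fold lower level (-0.63 ± 0.06, SE, adjusted p = 0.000283). All 3 Grb10 probes passed in both knockdowns, between -1.07 and -0.45 in p400 knockdown and between -0.82 and -0.54 in Tip60 knockdown. The brightest lies at chr11:11882970-11883029.

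Plagl1, a zinc-finger transcription factor that restrains the cell cycle, had log2 ratios of 1.15, 1.48, 0.90 and 0.60 in p400 knockdown. All were above 0, with a change of 1.03 ± 0.15 (SE, adjusted p = 0.00469). In Tip60 knockdown Plagl1 stood at -3.57, -3.03 and -3.07, against -3.62, -4.18, -4.14 and -4.87 in EGFP RNA. The groups did not overlap, but Tip60 replicate 1 and EGFP replicate 1 lay side by side, and the change of 0.98 ± 0.28 (SE) passed narrowly (adjusted p = 0.0425). The call was lost under 10 of 20 alternatives, among them leaving out Tip60 replicate 2 (0.89) or 4 (0.90) and EGFP replicate 2 (0.99) or 3 (1.0). With the deposited log ratios the p400 change of this dim gene was 1.74, and that of Magel2 was 3.33.

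Nnat, a small membrane protein of the endoplasmic reticulum known from the developing brain, had log2 ratios of 0.16, 0.18, -0.04 and 0.00 in p400 knockdown. They lay around 0, with a change of 0.08 ± 0.07 (SE, adjusted p = 0.462), and between 0.04 and 0.15 over the alternatives. Nnat was dim on these arrays, with processed signals of 34.2 to 49.0 in p400 knockdown and 28.2 to 53.6 in EGFP RNA. In Tip60 knockdown Nnat stood at -3.82, -3.49 and -3.76, against -2.94, -3.17, -3.16 and -3.07 in EGFP RNA, a 1.52-fold lower level without overlap (-0.61 ± 0.10, SE, adjusted p = 0.00427). The difference between the knockdowns was 0.68 ± 0.12 (SE, adjusted p = 0.0441). With the deposited log ratios set against quantile-normalized Tip60 values it was 0.97 and did not pass (adjusted p = 0.0677). Mest, a hydrolase-like gene of mesoderm, rose in p400 knockdown by 0.50 ± 0.08 (adjusted p = 0.00597) and had 0.13 in Tip60 knockdown (adjusted p = 0.20). Its p400 call was lost with median centring (0.17, adjusted p = 0.141) and with a common spread (0.59, adjusted p = 0.0584). Impact, a translational regulator, fell in p400 knockdown by 0.47 (SE 0.08, adjusted p = 0.00704) and had -0.16 in Tip60 knockdown, where its spot on EGFP replicate 1 was dropped as an outlier and 3 EGFP arrays remained. With that spot kept, the Tip60 change was 1.26 (adjusted p = 0.572), and with series matrix values 1.37 (adjusted p = 0.523), so its direction in Tip60 knockdown is not settled. Slc38a4, an amino acid transporter, fell in p400 knockdown by 0.31 (SE 0.09, adjusted p = 0.0455) and had -0.15 in Tip60 knockdown (adjusted p = 0.112). The p400 call was lost without replicate 1, 2 or 4, at -0.28, -0.23 and -0.32. In the fit over all probes, the second Slc38a4 probe gave -0.49 in p400 (limma adjusted p = 0.00355) and -0.26 in Tip60 knockdown (adjusted p = 0.0759).

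Sgce, the epsilon sarcoglycan, fell in both, by 0.27 in p400 knockdown (adjusted p = 0.0212) and by 0.25 in Tip60 knockdown (adjusted p = 0.0129). Its p400 call was lost without replicate 2 (-0.25), 3 (-0.30) or 4 (-0.22) and its Tip60 call without Tip60 replicate 1 (-0.24). The second Sgce probe gave -0.49 in p400 (limma adjusted p = 0.00425) and -0.27 in Tip60 knockdown (adjusted p = 0.0943). Its neighbour Ppp1r9a, an actin-binding partner of protein phosphatase, had -0.18 in p400 knockdown (adjusted p = 0.100) and -0.35 in Tip60 knockdown (adjusted p = 0.00677). A dimmer Ppp1r9a probe went the opposite way, with 0.36 (adjusted p = 0.0126) and 0.50 (adjusted p = 0.000784), so the gene has no settled direction here. Peg10, a retrotransposon-derived gene of the same cluster, had 0.10 and 0.07 and passed in neither. It was dim on the p400 arrays, with processed signals of 18.6 to 30.5 in EGFP RNA. With the deposited log ratios its p400 change was 0.48 and passed (adjusted p = 0.0131). In the Peg3 cluster, the zinc-finger gene Peg3 had 0.00 in p400 and 0.06 in Tip60 knockdown, and the ubiquitin protease gene Usp29 had 0.09 and 0.21, without passing. Gnas, the stimulatory G protein alpha subunit, had -0.26 in p400 knockdown (adjusted p = 0.0508) and -0.43 in Tip60 knockdown (adjusted p = 0.0141), which did not pass without Tip60 replicate 4 (-0.40). A much dimmer Gnas probe gave 0.25 in p400 knockdown (adjusted p = 0.0464) and 0.70 in Tip60 knockdown (adjusted p = 0.0838), opposite to the chosen one. The chosen probe cannot tell apart the Gnas transcripts of different imprinting that share their last exons.

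**Figure D3:**
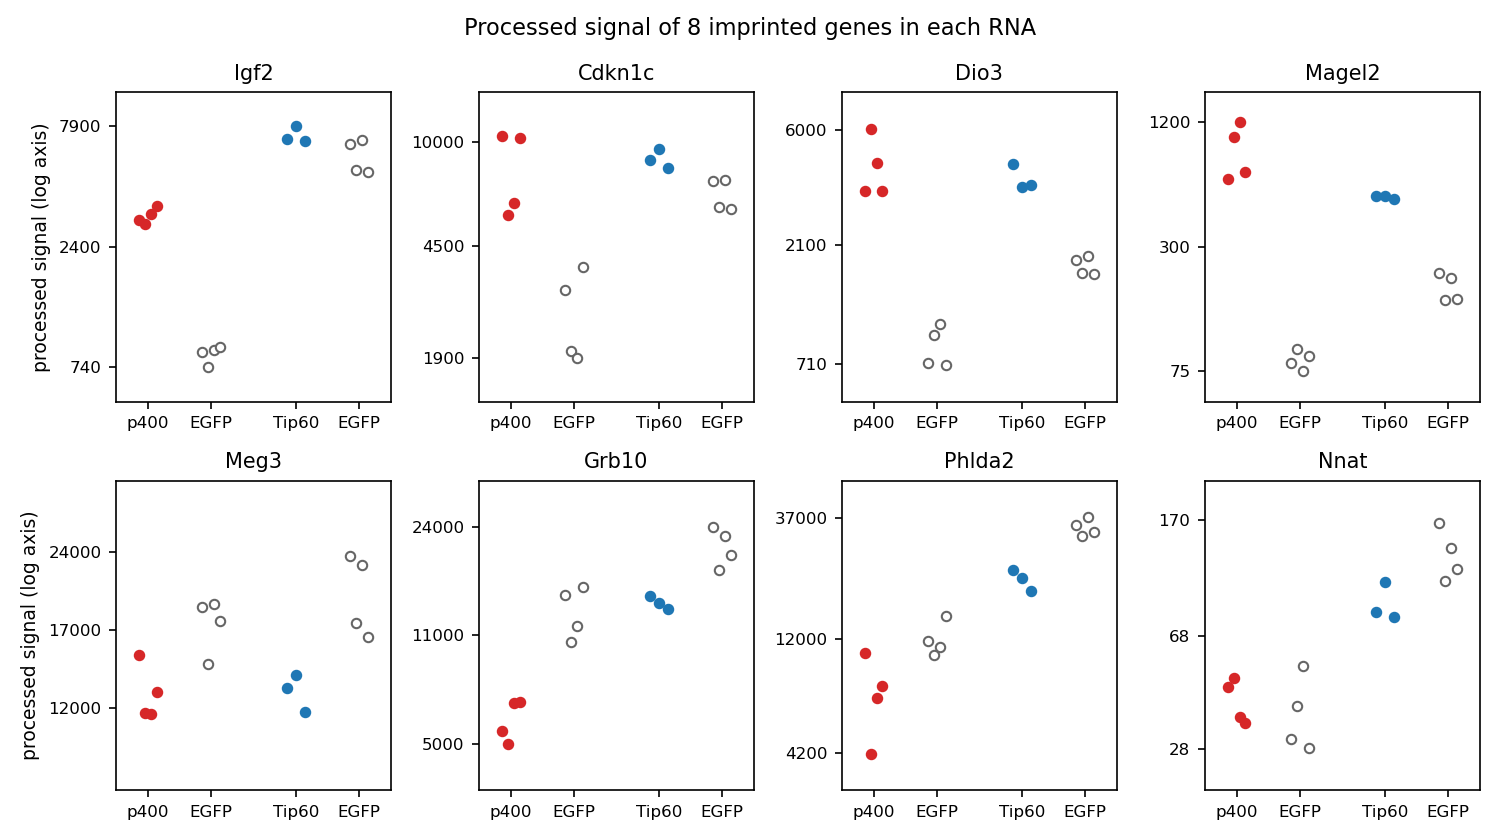
Processed signal on a log axis of 8 imprinted genes in p400 knockdown and EGFP RNA of the 4 arrays of 2 colours, and in Tip60 knockdown and EGFP RNA of the 7 arrays of 1 colour in the comparison, before scaling between arrays. Igf2, Cdkn1c, Dio3 and Magel2 are higher in p400 knockdown than in EGFP RNA on every array, and Igf2 in EGFP RNA reads far brighter in the second experiment than in the first.

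Set side by side, 5 of the 32 genes rose in both knockdowns (Igf2, Dio3, Magel2, Cdkn1c and Plagl1), where 10.5% of all 16836 genes tested in both did so. Another 6 fell in both (Meg3, Rian, Mirg, Phlda2, Grb10 and Sgce), where 5.89% of all genes did. With the p400 arrays scaled to a common spread, none of these 6 passed by limma in p400 knockdown, although all stayed below 0: Grb10 was at -1.26 (adjusted p = 0.0787), Rian at -1.03 (adjusted p = 0.130) and Phlda2 at -0.91 (adjusted p = 0.0618), and the other 3 lay between -0.63 and -0.38. Under the same scaling Igf2 (2.05, adjusted p = 0.0522) and Cdkn1c (1.73, adjusted p = 0.0531) also missed the threshold. Passing in p400 knockdown alone were H19, Igf2r, Dlk1, Mest and Ndn, which rose, and Impact and Slc38a4, which fell. Passing in Tip60 knockdown alone were Slc22a18, which rose, Mkrn3, Peg12, Kcnq1ot1, Nnat and Gnas, which fell, and Ppp1r9a, whose brightest probe fell and another rose. The other 7 genes passed in neither. Over all genes tested, 35.1% passed in p400 and 25.7% in Tip60 knockdown, and the share passing in 1 knockdown alone was not computed. These sets rest on the threshold. Gnas, for example, missed it narrowly in p400 knockdown (limma adjusted p = 0.0508) and passed there under 5 of 14 alternatives. By array, 11 genes had a ratio above 0 on all 4 p400 arrays (28.6% of all genes) and 9 below 0 on all 4 (24.2% of all genes). In the Tip60 comparison 6 genes had all knockdown arrays above all EGFP arrays (19.2% of all genes) and 14 had all below (17.4% of all genes).

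The difference between the knockdowns was tested itself and passed for 5 of 32 genes, where 4.17% of all 16836 genes passed. These were Igf2, Cdkn1c, Dio3, Dlk1 and Nnat, all with the higher change in p400 knockdown (2.33% of all genes in that direction). In the other direction, where 1.84% of all genes passed, limma-based testing called 0 of the 32, and 2 had an unadjusted p under 0.05. The difference for Igf2 was 1.61 ± 0.10 (SE, adjusted p = 0.0217). Igf2r at 0.53 (adjusted p = 0.0503) and Slc22a18 at -0.44 (adjusted p = 0.0583) came close without passing. The experiments had their own EGFP RNA and used other labelling and array formats. EGFP signal of the Igf2 probe was 6.80 times as bright in the Tip60 experiment (median 5882) as in the p400 experiment (median 865), beside a median ratio of 1.45 over the 32 genes. That ratio was 3.63 for Nnat, 3.12 for Dlk1, 2.58 for Cdkn1c and 2.09 for Dio3, so all 5 genes were among the 10 with the highest ratio. The part of this in their differences was not tested.

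**Figure D4:**
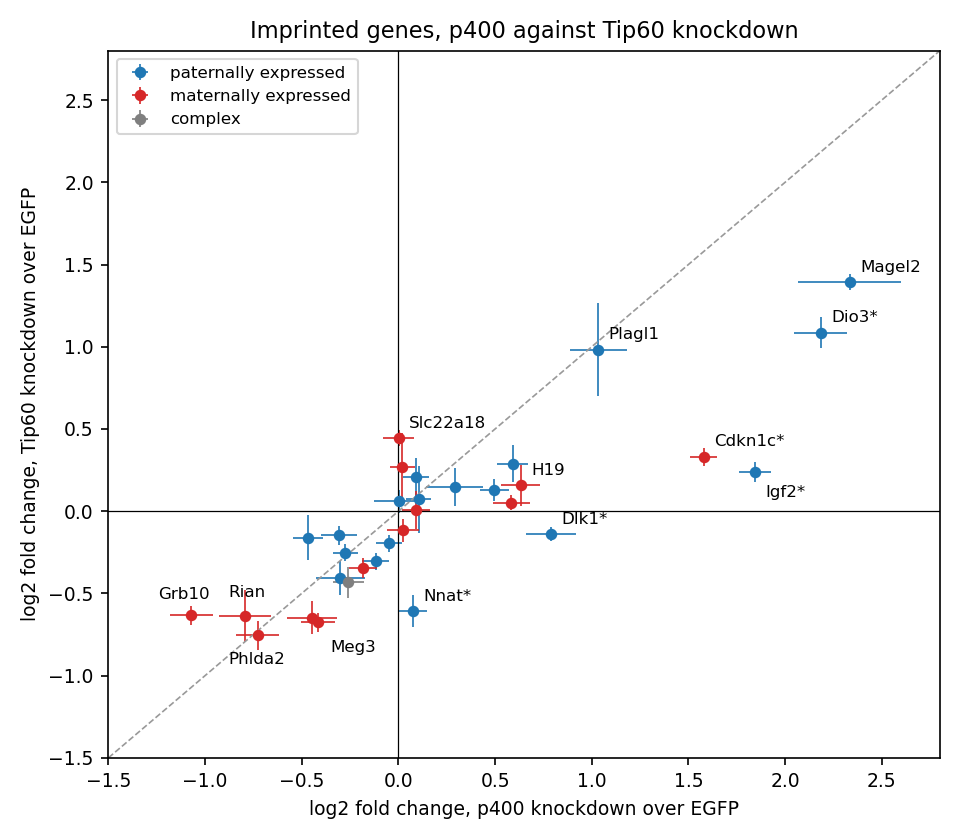
Log2 fold change over EGFP of the 32 imprinted genes in p400 knockdown (horizontal axis) and in Tip60 knockdown (vertical axis), with SE as bars, colour for the usual expressed allele, a dashed line of equal change and asterisks for the 5 genes whose difference passed the test. Those 5 genes lie below the line, while Plagl1 and Phlda2 lie close to it.

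The genes did not divide cleanly by parental allele. Of the 18 paternally expressed genes tested, 7 rose and 3 fell in p400 knockdown (median 0.10), and 4 rose and 5 fell in Tip60 knockdown (median 0.07). Of the 13 maternally expressed genes, 3 rose and 5 fell in p400 knockdown (median 0.00), and 2 rose and 6 fell in Tip60 knockdown (median -0.12), Ppp1r9a being counted among the 6 by its brightest probe. Over all genes 20.2% rose and 14.9% fell in p400 knockdown, and 15% rose and 10.8% fell in Tip60 knockdown. The median of the paternally expressed genes in Tip60 knockdown was below 0 under 6 alternatives, with a range from -0.14 to 0.11. In the maternally expressed genes that median ranged from -0.32 to 0.01 over the alternatives. In p400 knockdown the paternal median ranged from 0.06 to 0.28 and was below 0 under 0 of 14 alternatives. The maternal median in p400 knockdown ranged from -0.32 to 0.03 and was below 0 under 8 of 14. The Dlk1-Dio3 and Kcnq1 clusters held genes that rose and genes that fell in both knockdowns, and the Snrpn cluster did so in Tip60 knockdown.

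Beside these, 37 further genes reported as imprinted in some mouse tissue were looked up, of which 34 were on the array. In p400 knockdown 4 of 26 tested rose and 4 fell (median 0.14), where 20.2% of all genes rose and 14.9% fell, so these counts were near or below those of all genes. In Tip60 knockdown 7 of 25 rose, where 15% of all genes rose, and the rest did not pass (median 0.07). The calcitonin receptor gene Calcr (0.82) and Qpct, a glutaminyl cyclase (0.47), rose most in p400 knockdown, and Copg2 (-0.39), a coat protein of vesicles, and Ins2 (-0.37), an insulin gene beside Igf2, fell most. Th, which makes the precursor of dopamine and lies beside Igf2, rose most in Tip60 knockdown (1.49, adjusted p = 0.00144), followed by Qpct (1.17, adjusted p = 0.000131).

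Of 25 factors known to set, protect or read imprints, 5 rose and 3 fell in p400 knockdown (median 0.06), which is near the 20.2% and 14.9% of all genes. In Tip60 knockdown 1 rose and 4 fell (median -0.04), where 15% of all genes rose and 10.8% fell. The de novo DNA methyltransferase gene Dnmt3a rose most in p400 knockdown (1.16 ± 0.13, SE, adjusted p = 0.00238), followed by its cofactor Dnmt3l (0.83, adjusted p = 0.00124). Cbx5, a heterochromatin protein gene (-0.49, adjusted p = 0.0220), and Arid4b (-0.33, adjusted p = 0.0315) fell most. In Tip60 knockdown Dppa3, which shields imprints in the early embryo, rose (0.39, adjusted p = 0.00262), and Arid4b (-0.30, adjusted p = 0.0304) and Dnmt3b (-0.22, adjusted p = 0.0298) fell most among those that passed. The maintenance methyltransferase gene Dnmt1 had 0.06 in p400 and 0.00 in Tip60 knockdown, and Zfp57 had 0.19 and 0.06, without passing.

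Some markers of other lineages that express imprinted genes moved in the same RNA. Their summed levels were apart from EGFP RNA for primitive endoderm in both knockdowns and for trophoblast in p400 knockdown. The other ranges overlapped. The summed level of 15 primitive endoderm markers, relative to the 75th percentile of the array, ranged from 16.4 to 24.8 in p400 knockdown, against 11.7 to 15.7 in EGFP RNA of the same arrays, and from 21.8 to 25.7 in Tip60 knockdown, against 16.6 to 19.5 in EGFP RNA. For 14 trophoblast markers the ranges were 42.8 to 46.6 in p400 knockdown, against 29.1 to 30.9, and 88.3 to 106 in Tip60 knockdown, against 82.5 to 94.2. The fibroblast markers summed to 18.3 to 23.4 in p400 knockdown, against 16.7 to 19.2, and to 17.7 to 31.2 in Tip60 knockdown, against 16.7 to 41.2. That sum was 16.7 in EGFP replicate 1 and 39.7 to 41.2 in EGFP replicates 2 to 4. In Tip60 replicates 1, 2 and 4 it was 31.2, 18.1 and 17.7. Outlier spots were left out of the sums array by array, so sums of different arrays may not cover the same markers. The fibroblast ranges of the Tip60 experiment therefore cannot tell how much fibroblast RNA the samples held. Among markers that were too dim to test in either comparison were Col6a1, Lum and Postn of fibroblasts, Tpbpa and Gcm1 of trophoblast and Ttr of endoderm. Decorin (Dcn), an imprinted gene that fibroblasts express strongly, was likewise dim. No p400 or EGFP array was well above background for Dcn, while 2 of 3 Tip60 arrays were. Of the fibroblast markers tested, Thy1 rose most (1.43 in p400 and 1.24 in Tip60 knockdown), and Tagln fell most (-0.62 and -0.73). The part of these cell types in the changes of imprinted genes was not tested.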

How the data were processed

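RNA levels were measured on Agilent mouse arrays, scanned and read with Feature Extraction 9.5.1.1 per the file headers, which give probe positions on build mm7. The deposited intensity columns hold mean signal, background and a processed signal, which the software had background-subtracted and, on arrays of 2 colours, dye-normalized. The deposited LogRatio is log10 of red over green. A series matrix, also deposited, gives log2 values, and the steps behind it are not given in the sources used here.

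For p400, background was removed from the mean signals by normexp (offset 50), followed by loess with control spots at weight 0, ratios were turned by the dye labels (Cy5 for p400 RNA in replicates 1 and 3, Cy3 in 2 and 4), and limma 3.58.1 (R 4.3.3) fitted the knockdown and a dye term. For Tip60, log2 processed signal minus the 75th percentile of the array was compared between Tip60 replicates 1, 2 and 4 and EGFP replicates 1 to 4 (lmFit, eBayes). Control spots and outlier spots were left out. A gene was tested where its probe exceeded background by the scanner software's call on 3 or more arrays of one RNA, with two-sided tests and Benjamini-Hochberg adjustment over all genes tested (threshold 0.05). The difference between the knockdowns was tested against a standard error combined from both fits, with the smaller degrees of freedom. Apart from the imprinted genes, probes were named by accession (22898), symbol (6648), synonym (3103) or the name in the file (8458). Scripts were tested on simulated data. Figures were drawn with matplotlib 3.10.9.

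All imprinted genes are accounted for. Values on every array are given for called genes that changed by at least 0.5 (log2) or differed between the knockdowns, and of other lists the 2 largest called rises and falls. The genes, lists and tests were chosen with earlier results of these data known, so no list was tested. Replicate numbers were not used to pair the samples in the main fit. Deviations of same-numbered Tip60 and EGFP arrays correlated at -0.28, -0.34 and -0.10. All same-numbered arrays in the comparison lay on different slides, so these values cannot tell whether the cultures were paired. Correlations of Tip60 and EGFP arrays on the same slide ran from -0.23 to 0.58, and the main Tip60 fit had no slide term.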

Additional observations from a re-analysis of the deposited data

Results flagged for a closer look

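The effects of the knockdowns differed by the test of the difference itself for Igf2 (p400 minus Tip60 change 1.61), Cdkn1c (1.25), Dio3 (1.1), Dlk1 (0.93) and Nnat (0.68). Of 63 groups of 4 arrays of the imprinted genes, 2 held an array far from the others, where chance gives about 1 in 20. These were the EGFP level of Meg3, at 4.09 on replicate 4 with the others between 4.21 and 4.22, and the p400 over EGFP ratio of Cd81, at 0.29 on replicate 3 with the others between -0.09 and -0.03. Meg3 stayed called in Tip60 knockdown without EGFP replicate 4 (-0.71). Among the genes too dim to test, Dcn was well above background on 2 of 3 Tip60 arrays and Nap1l5 on 1 of 3, while no EGFP array showed either.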

How the results depend on the processing

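Imprinted genes called in p400 knockdown kept their sign in all 252 results over the alternatives, those called in Tip60 knockdown in all but 1 of 360 (Ppp1r9a), and the 5 differences in all 15. Genes that were not called turned sign in 27 of 195, 33 of 280 and 6 of 81 results. In all, 28, 63 and 1 calls were lost and 11, 6 and 6 gained. Dio3, Grb10, Magel2, Meg3, Mirg and Phlda2 kept their Tip60 call under all 20 alternatives, and Dio3, Dlk1, H19, Impact, Magel2, Ndn and Plagl1 their p400 call under all 14. Median centring of the p400 arrays, which moved the median of all genes to -0.10, gave 6714 genes lower and 14 imprinted genes lower, reversed Cd81 (-0.32) and Slc22a18 (-0.24), and left 30% of calls higher, beside 57.6% by loess. Scaling to a common spread gave 2364 calls (1839 higher, 525 lower) and 1 imprinted gene lower. Deposited log ratios gave 4230 genes lower. Leaving out a p400 replicate gave 3144 to 4930 calls, 1909 to 3070 higher and 1235 to 1860 lower, with 4 to 8 imprinted genes lower. Median scaling of the Tip60 experiment, which moved the median of all genes to -0.20, gave 1458 genes higher and 4965 lower (22.7% of calls higher, beside 58.2%), with 3 imprinted genes higher. Within slide 2 there were 1830 calls (1375 higher, 455 lower), with 3 imprinted genes higher and 5 lower; all 18 called genes had the same sign within each slide. With the replicate block, which leaves 3 pairs by number, there were 1815 calls (1493 higher, 322 lower), with 3 imprinted genes higher and 4 lower. Without a filter there were 2898 calls (847 lower), and with series matrix values 1683 higher. Leaving out a Tip60 or EGFP replicate gave 1110 to 1473 genes lower. The mean over probes reversed Ppp1r9a in Tip60 knockdown (0.075). For the difference, Welch degrees of freedom gave 2463 calls (1239 higher, 1224 lower) and 2 imprinted genes lower, Grb10 and Slc22a18, where the limma-based test with fewer degrees of freedom called none (2 at an unadjusted p under 0.05). Deposited log ratios against quantile-normalized values gave 657 higher and lost Nnat, and adding Tip60 replicate 3 gave 203 lower. The share of calls that were higher was 77.8% with a common spread and 48% with log ratios (p400), and 46.8% with quantile, 49.8% with normexp and quantile, 70.8% without a filter, 75.1% within slide 2 and 82.3% with the block (Tip60). Causes were not tested. Keeping outlier spots was an alternative chosen after seeing the data. Dim genes are the least certain: the Tip60 change of Plagl1 was 0.44 with normexp and quantile.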
